A study of Drosophila melanogaster with 3 samples.

Results

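Peaks of Ets21C-eGFP at promoters that belonged to a single protein-coding gene were examined in whole white prepupae of Drosophila melanogaster, the stage at which the larva has just formed its puparium. Of the 4482 peaks that the deposited optimal list held on the nuclear chromosome arms, 1067 had their summit within 500 bp of annotated transcription start sites (TSSs) of exactly 1 coding gene. They lay at 966 of 13945 coding genes (6.93%). Another 616 peaks lay at promoters shared by several coding genes, and 2799 were farther from any coding TSS. The members were chosen by position alone, with no use of signal, and 74 of them also lay within 500 bp of the TSS of a noncoding gene.

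The study was a chromatin immunoprecipitation with sequencing (ChIP-seq), in which DNA bound by a protein is precipitated and sequenced, of 3 biological replicates that form 1 group. The flies were a transgenic line, strain d.ets6-GFP, that carried Ets21C with GFP at its C-terminus, and males and females were pooled. Chromatin was sonicated to a size range of 200 to 800 bp. The description of each sample gives an antibody against GFP, while the antibody label reads Ets21C. No control library was among the samples. Whole animals were used, so a strong peak in few cells and a weak one in many cannot be told apart. Nothing in the labels says which promoter or copy number the transgene has. Ets21C is an ETS-family transcription factor, and ETS proteins bind DNA at short elements around a GGAA core. In flies it is known for its induction by JNK signalling in stress, wounding and regeneration. Promoters of Drosophila carry other short elements as well, among them the DRE, bound by DREF, and the GAGA element, bound by the product of Trl, and many genes start transcription at several alternative promoters.

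The DNA under the highest peaks is shown first because base composition was a feature in which these summits differed from promoters at large. The lines below give 121 bases, from 60 bp before to 60 bp after the summit, on the strand of the gene, for 13 of the 20 highest members found in every replicate, namely those on X, 2L, 3L and 3R with the summit upstream of the TSS. Capitals mark TTAAG or its reverse complement CTTAA, a word looked for after these sequences had been read. Coordinates are of dm6, and the bases were read from the RefSeq Release 6 genome.
CG14100, chr3L:19590549-19590669, minus strand, bases −145 to −25 from the TSS: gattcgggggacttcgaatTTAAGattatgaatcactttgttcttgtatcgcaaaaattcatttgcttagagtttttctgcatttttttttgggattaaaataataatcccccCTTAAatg
Ugalt, chrX:2703831-2703951, minus strand, bases −99 to +21 from the TSS: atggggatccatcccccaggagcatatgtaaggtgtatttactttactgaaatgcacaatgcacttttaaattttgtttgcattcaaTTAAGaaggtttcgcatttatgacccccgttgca
larp, chr3R:28326537-28326657, minus strand, bases −393 to −273 from the TSS: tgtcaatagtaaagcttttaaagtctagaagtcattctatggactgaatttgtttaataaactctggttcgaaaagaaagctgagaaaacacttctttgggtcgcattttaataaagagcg
CG31145, chr3R:23669793-23669913, minus strand, bases −254 to −134 from the TSS: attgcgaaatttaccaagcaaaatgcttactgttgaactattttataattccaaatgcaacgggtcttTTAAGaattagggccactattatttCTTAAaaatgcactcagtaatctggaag
ph-p, chrX:2137271-2137391, minus strand, bases −536 to −416 from the TSS: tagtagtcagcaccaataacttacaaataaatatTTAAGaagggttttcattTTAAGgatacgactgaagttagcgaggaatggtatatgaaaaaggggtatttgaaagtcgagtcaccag
Trp1, chr2L:10010162-10010282, plus strand, bases −192 to −72 from the TSS: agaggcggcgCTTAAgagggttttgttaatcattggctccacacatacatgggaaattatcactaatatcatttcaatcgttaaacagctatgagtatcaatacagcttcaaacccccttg
CG18549, chr3R:12449122-12449242, plus strand, bases −174 to −54 from the TSS: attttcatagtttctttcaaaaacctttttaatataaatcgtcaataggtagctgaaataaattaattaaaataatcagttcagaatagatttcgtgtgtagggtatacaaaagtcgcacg
CG13921, chr3L:1746725-1746845, plus strand, bases −182 to −62 from the TSS: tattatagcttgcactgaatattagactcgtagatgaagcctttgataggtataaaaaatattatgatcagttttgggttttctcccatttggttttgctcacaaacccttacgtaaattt
Hsp27, chr3L:9383857-9383977, plus strand, bases −206 to −86 from the TSS: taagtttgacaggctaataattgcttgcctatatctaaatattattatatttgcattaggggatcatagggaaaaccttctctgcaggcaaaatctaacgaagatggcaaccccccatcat
Hpf1, chr3R:5791715-5791835, plus strand, bases −164 to −44 from the TSS: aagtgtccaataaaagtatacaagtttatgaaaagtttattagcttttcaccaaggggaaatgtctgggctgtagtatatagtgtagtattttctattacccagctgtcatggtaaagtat
nebu, chr3L:12843211-12843331, minus strand, bases −225 to −105 from the TSS: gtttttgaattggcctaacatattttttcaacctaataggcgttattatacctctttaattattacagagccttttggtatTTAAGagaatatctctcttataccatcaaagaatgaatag
Msp300, chr2L:5108089-5108209, plus strand, bases −423 to −303 from the TSS: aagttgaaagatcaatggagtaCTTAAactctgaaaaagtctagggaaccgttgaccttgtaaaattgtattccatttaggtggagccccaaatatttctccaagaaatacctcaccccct
CG1607, chr3R:31384193-31384313, plus strand, bases −206 to −86 from the TSS: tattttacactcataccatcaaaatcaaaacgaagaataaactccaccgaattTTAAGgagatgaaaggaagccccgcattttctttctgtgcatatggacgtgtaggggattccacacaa
The GC content of these 13 stretches lay between 27.3% and 39.7%, with a median of 33.1%. TTAAG or CTTAA was present in 8 of them and absent from 5.

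A second set shows the promoter elements that were found, each within 60 bp of a summit. They come from the 6 highest members with each element on X, 2L, 3L, 3R and 4 whose summit was over 30 bp upstream of the TSS, and only those with the element in the printed bases are given. The first 4 carry the DRE, and the last has the element bound by M1BP, a zinc finger protein of promoters. Capitals mark TATCGATA, the DRE, or AGTGTGACC, the M1BP element on the opposite strand. The genes encode a translation elongation factor (eEF1gamma), a protein named only by its locus (l(3)73Ah), a scaffold of the Hippo pathway (kibra), a protein of the small ribosomal subunit (RpS10b) and a subunit of the vacuolar proton pump (Vha68-2).
eEF1gamma, chr3R:29220068-29220188, plus strand, bases −104 to +16 from the TSS: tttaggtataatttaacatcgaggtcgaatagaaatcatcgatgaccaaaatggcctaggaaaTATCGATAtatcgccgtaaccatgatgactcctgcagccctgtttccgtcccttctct
l(3)73Ah, chr3L:16588227-16588347, plus strand, bases −248 to −128 from the TSS: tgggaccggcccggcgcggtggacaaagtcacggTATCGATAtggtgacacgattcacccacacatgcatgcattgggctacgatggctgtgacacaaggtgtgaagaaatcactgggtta
kibra, chr3R:14724314-14724434, minus strand, bases −173 to −53 from the TSS: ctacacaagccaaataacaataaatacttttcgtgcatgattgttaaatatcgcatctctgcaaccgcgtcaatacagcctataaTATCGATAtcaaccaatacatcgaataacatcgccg
RpS10b, chrX:19597923-19598043, plus strand, bases −108 to +12 from the TSS: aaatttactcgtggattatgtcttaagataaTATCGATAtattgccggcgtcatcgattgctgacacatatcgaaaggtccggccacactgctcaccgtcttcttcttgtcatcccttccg
Vha68-2, chr2L:12974071-12974191, plus strand, bases −251 to −131 from the TSS: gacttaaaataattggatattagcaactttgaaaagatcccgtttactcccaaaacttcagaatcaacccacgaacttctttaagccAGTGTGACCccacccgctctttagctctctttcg
The peaks shown here were lower than those above. Their signals were 316 at eEF1gamma, 204 at l(3)73Ah, 201 at kibra, 193 at RpS10b and 166 at Vha68-2. In the first set they ran from 4103 at CG14100 to 1362 at CG1607. This contrast depends in part on which members are shown. One of the 20 highest, eIF6 (signal 1706), had the DRE within 100 bp of its summit but lay on an arm not shown. CG11151 (861) had the DRE only outside the printed bases. Over all members the median signal was 164 with the DRE and 201 without it.

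The highest peak was at CG14100 (FBgn0036889, 3L:19590413-19590836), which has no descriptive name. Its height, the deposited signal divided by the median of the 4505 highest peaks of the same replicate, was 30.7, 20.6 and 17.4 in replicates 1, 2 and 3 (22.9 ± 6.92, SD, n = 3). Its summit in the optimal list was at −85 bp, and the replicate summits were at −96, −88 and −88 bp. The next was at Ugalt (FBgn0024994, X:2703683-2704100), which encodes a transporter of UDP-galactose into the Golgi, with heights of 19.7, 12.5 and 16.4 (16.2 ± 3.61) and a summit at −39 bp. Every replicate thus placed both peaks far above its own median, with replicate 1 the highest each time. PNPase (FBgn0039846, 3R:31404470-31404868), the gene of a polynucleotide phosphorylase that acts on mitochondrial RNA, had heights of 15.9, 10.6 and 14.4 (13.6 ± 2.71), with the summit downstream of a TSS at +79 bp.

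Among the other members of this group of 20 were larp, which encodes an RNA-binding regulator of translation (12.3 ± 2.56), and mRpL41, for a protein of the mitochondrial ribosome (11.0 ± 0.701). The polycomb group gene ph-p, whose tandem copy ph-d is similar in sequence so that reads can be shared between them, had a height of 10.9 ± 3.33, and Sox14, for a transcription factor induced by the steroid ecdysone, one of 10.6 ± 3.08. GstE13, for a glutathione S-transferase, followed with 9.22 ± 1.71, and eIF6, for a factor that keeps ribosomal subunits apart, with 9.19 ± 2.49. Hsp27, for a small heat shock protein (3L:9383716-9384109), had heights of 10.5, 9.77 and 5.99 (8.74 ± 2.40). The lowest of the 20 by signal was CG1607, with 8.84, 6.12 and 6.81 (7.26 ± 1.41). Ugalt was below CG14100 and above the other 18 in each replicate. The ranges of many neighbours lower in the order overlapped, and their order is not resolved at n = 3. Replicate 1 gave the highest value for every gene of the 20 except CG18549, which was highest in replicate 3 (9.34, 7.29 and 9.71).

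**Figure D1:**
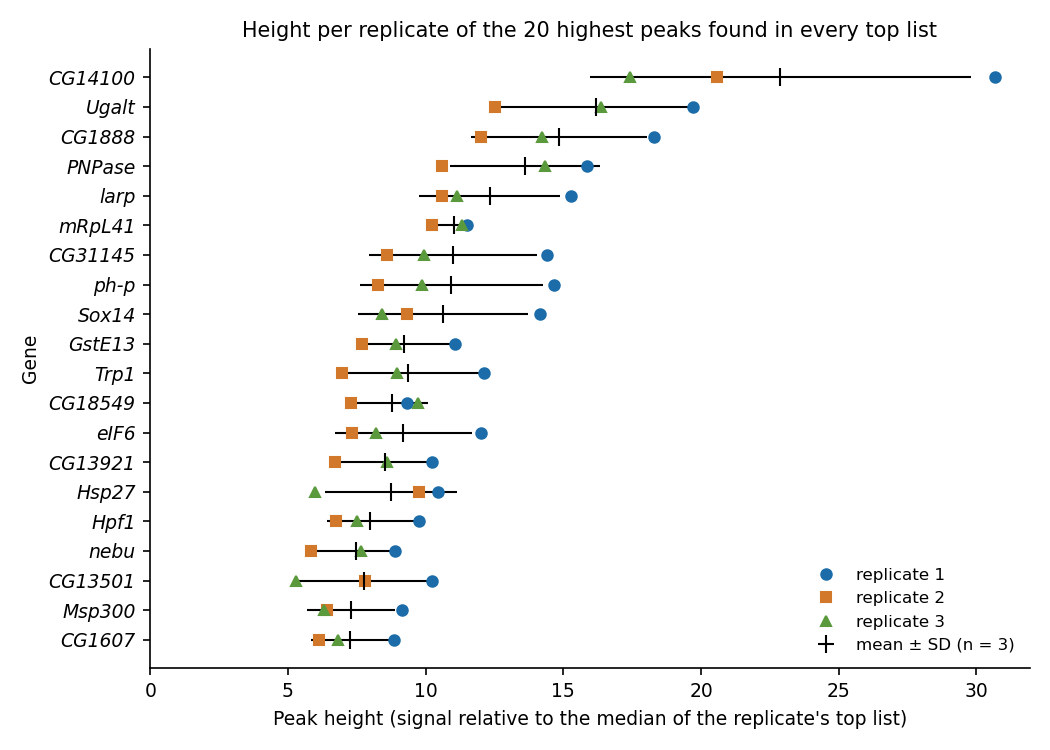
Height of the 20 highest peaks at promoters of 1 coding gene that were in the top list of every replicate. Each row is a gene, the x axis is the signal relative to the median of the replicate's top list, symbols are the 3 replicates, and bars are mean ± SD. CG14100 stands apart at 17.4 to 30.7, and the other genes lie between 5.31 and 19.7.

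Over all members the signal had a median of 199 and quartiles of 144 and 343, against medians of 227 at shared promoters, 183 away from coding promoters and 192 over the whole list. Members made up 28 of the 100 highest optimal peaks, 163 of the 500 highest (32.6%) and 23.8% of the list. A top list was defined for each replicate as its 4505 peaks of highest signal, and a peak counted as found where a summit of that list lay within 100 bp. By this measure 435 members (40.8%) were found in all 3 top lists, below the 45.7% of all optimal peaks, while the share was 31.0% at shared promoters. A further 392 were found in 2 lists, 209 in 1 and 31 in none. The most common incomplete pattern was replicates 2 and 3 without replicate 1, with 270 members (25.3%), and 136 were in replicate 3 alone. Replicate 1 held 54.5% of the members, replicate 2 77.9% and replicate 3 83.0% (71.8 ± 15.2%, n = 3). The optimal list was itself made from these replicates, so these shares describe the list and are no independent repeat.

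The same rule applied to each top list gave 775 peaks in replicate 1 (17.3% of its summits on the nuclear arms), 1075 in replicate 2 (24.0%) and 1315 in replicate 3 (29.3%). They lay at 694, 979 and 1164 coding genes, which is 4.98%, 7.02% and 8.35% of all coding genes. Replicate 3 thus contributed most peaks at single-gene promoters and replicate 1 fewest.

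Summits lay upstream of the TSS far more often than downstream. Of the 1067 members, 896 (84.0%) were upstream and 171 downstream, whereas 45.2% of all bases within 500 bp of a TSS of 1 coding gene only lie upstream of the nearest TSS. The median position was −157 bp, with quartiles of −267 and −63 bp, and 542 members (50.8%) were between 50 and 250 bp upstream. The fullest 25-bp interval began at −175 bp and held 93 members. Within 50 bp of the TSS, where the general transcription machinery assembles, lay 93 members (8.72%). Within 100 bp lay 245 (22.96%), close to the 21.1% of bases near 1 coding gene only that lie there. The share of bases within 50 bp was not computed. In the replicate top lists 86.3%, 87.3% and 77.3% of summits were upstream (83.6 ± 5.55%, n = 3), and the median positions were −202, −169 and −106 bp (−159 ± 48.8). All replicates therefore had most summits upstream, and replicate 3 had them closest to the TSS. Weaker peaks at single-gene promoters, taken from the pooled list and over 500 bp from any optimal summit, were upstream in 64.6% of 3103 cases, with a median of −85 bp.

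**Figure D2:**
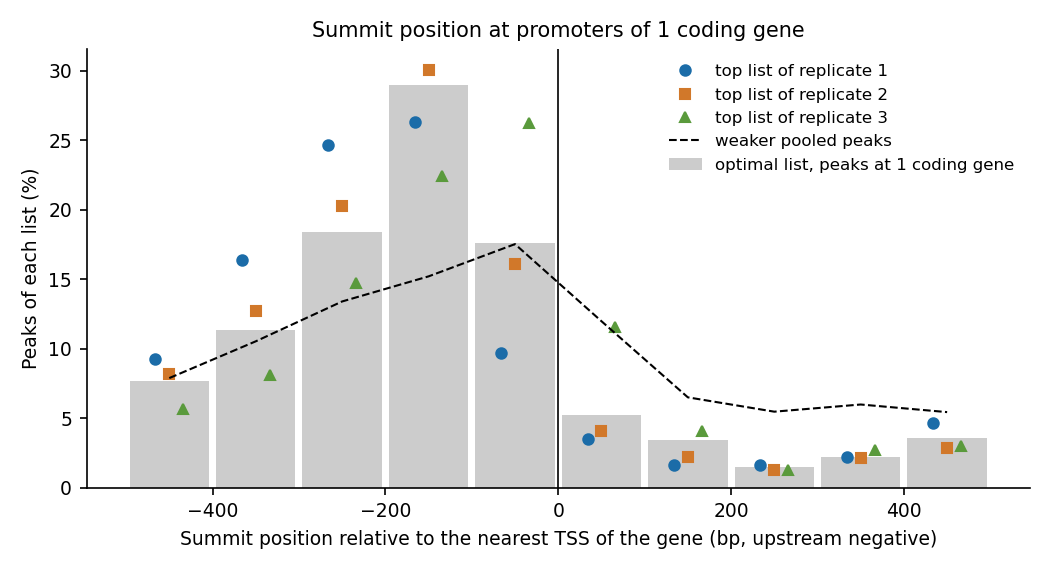
Position of summits at promoters of 1 coding gene, in 100-bp steps from the nearest TSS (x axis, bp, upstream negative), as a percentage of each list (y axis). Bars are the optimal list, symbols the top lists of the 3 replicates, and the dashed line the weaker pooled peaks. The tallest bar is 200 to 100 bp upstream (29.0%), and replicate 3 (triangles) is highest in the 100 bp before the TSS (26.2%).

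Members close to the TSS were less often in all 3 top lists together. In the 4 intervals from 500 to 100 bp upstream, 45.0% to 52.1% of members were in all 3 top lists, against 22.9% from 100 bp upstream to the TSS and 25% in the first 100 bp downstream. Their median signals also differed, with 219 from 200 to 100 bp upstream and 166 in the last 100 bp before the TSS. Downstream members as a group had a median signal of 175, against 202 upstream. Replicate 1 held 57.0% of upstream and 40.9% of downstream members and replicate 2 80.1% and 66.1%, but replicate 3 held 82.3% and 87.1%, the opposite order. Because a replicate summit had to lie within 100 bp of the optimal summit to count as found, the positions of the 435 members found in all 3 replicates are limited by that rule. Their 3 replicate summits spanned a median of 36 bp and at most 156 bp, and they lay on 1 side of the TSS for 428 of them (98.4%).

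By annotation, 582 members (54.5%) had the summit upstream of the whole gene, 351 (32.9%) in an intron, 129 (12.1%) in a 5′ UTR and 5 in a coding exon. A summit just before an alternative TSS can fall in an intron of a longer transcript. Median signals were 201 upstream of the gene, 206 in introns and 165 in 5′ UTRs. The highest summits over 100 bp downstream of a TSS were at CG31612 (+490 bp, signal 854), ph-p (+449 bp, 778), pnut, a septin gene (+121 bp, 729), CG5854 (+499 bp, 668) and CG12316 (+139 bp, 658). The peak at pnut had heights of 4.07, 3.69 and 3.54 in the 3 replicates and that at CG31612 5.98, 3.89 and 4.14. CG5854 was listed in replicates 2 and 3 only, at 2.83 and 3.74. At the edge of the rule, the members nearest to 500 bp were CG43736 (−500 bp, signal 555), CG5854 and rols (−498 bp, 114). The peaks just beyond were at CG15172 (−501 bp, 248), jar (−501 bp, 568) and P5CS (+504 bp, 146). There were 54 members at 450 bp or more and 54 peaks in the next 50 bp, so no gap in the data falls at the limit.

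Summits at single-gene promoters were farther from the TSS than summits at shared promoters, a difference that the rule itself favours. In the optimal list 22.96% of members and 47.4% of the 616 peaks at shared promoters lay within 100 bp of the nearest TSS, and the median distances regardless of direction were 183 and 103 bp. A base near several genes lies closer to some TSS by the rule itself. The tests below on the share within 100 bp and on the distance are therefore no separate evidence about the peaks. Of all bases near 1 gene 21.1%, and of those near several genes 41.7%, were within 100 bp of a TSS, so each class was not far from the share of its own bases. The replicates gave 13.2%, 20.2% and 37.8% for single-gene promoters and 42.2%, 49.3% and 61.7% for shared ones. The difference was −29.0, −29.1 and −23.9 percentage points, lower at single-gene promoters in 3 of 3 replicates (exact sign-flip permutation test over replicates, two-sided p = 0.25, the smallest that 3 replicates allow, 0.5 after Benjamini-Hochberg adjustment over 6 comparisons). The distance was larger by 114, 92 and 57 bp (exact p = 0.25, adjusted 0.5). GC content was higher by 1.60, 2.18 and 3.26 percentage points at single-gene promoters (exact p = 0.25, adjusted 0.5). The upstream share did not differ in 1 direction (differences of 0.50, 3.21 and −3.34 points, exact p = 1, adjusted 1). The share found in the top list differed by 17.3, −10.4 and 3.17 points (exact p = 0.75, adjusted 0.9), and the median height by −0.58, −0.18 and 0.00115 (exact p = 0.5, adjusted 0.75).

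Of all bases within 500 bp of a coding TSS, 87.1% are near 1 gene only, but only 63.4% of the 1683 peaks at coding promoters were. Single-gene promoters were thus represented below their share of promoter sequence in the optimal list. Members were frequent on X, which held 22.5% of them and 15.7% of coding genes. The replicates gave 22.8%, 16.7% and 21.6% on X (20.4 ± 3.27%, n = 3), each above the share of genes, although replicate 2 was close to it. On X 206 of 2196 coding genes (9.38%) had a member.

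DNA at these summits was poorer in G and C than promoters at the same distance. Within 50 bp of the summit the GC content was 34.3 ± 8.79% (SD over 1067 peaks), and 500 bp to either side it was 43.0%. At the same distances from all 19607 coding TSS positions the mean was 39.96%, and 821 members (76.9%) were below the value for their own distance. In the top lists of replicates 1, 2 and 3 the mean was 32.7%, 32.8% and 37.9%, with 83.2%, 79.8% and 63.1% of summits below. The shift was therefore present in all replicates and smallest in replicate 3. Weaker pooled peaks at single-gene promoters stood between, at 37.5% with 66.9% below. Low GC content was not particular to the members. Peaks at shared promoters had 31.8%, with 85.7% below the value for their distance. Peaks away from coding promoters had 31.9% and all optimal peaks 32.4%, so the members were richer in G and C than either. Close to the TSS the members were less distinct, with 40.3% GC in the 50-bp step at −50 bp. In the step around the TSS (41 members) they had 45.4%, with a standard error of 1.45% over peaks, which are not replicates. All promoters together had 43.7% at the TSS. No value per replicate is given for this step, so the difference there is not judged.

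**Figure D3:**
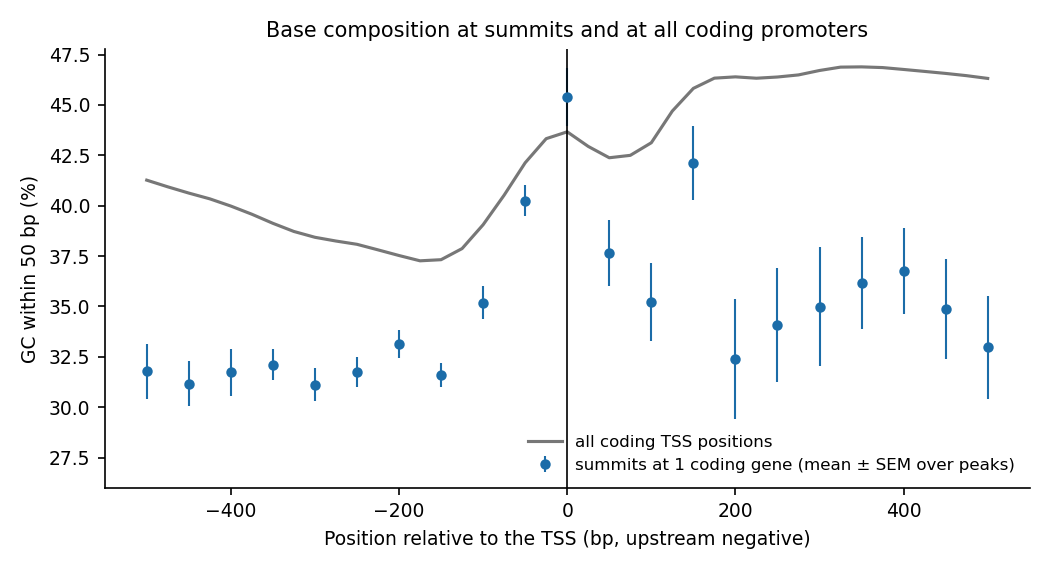
GC content within 50 bp (y axis) against position relative to the TSS (x axis, bp, upstream negative). Points are the members whose summit lies there, in 50-bp steps with the standard error over peaks, and the line is the mean over 19607 coding TSS positions. The members lie below the line at most positions, for example 31.6% at −150 bp. In the step around the TSS they are at 45.4% (standard error 1.45% over peaks, which are not replicates), against 43.7%.

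Short words near the summits were counted on both strands within 100 bp and set beside 201-base windows centred at −157 bp of all coding TSSs, which is the median position of the members. The words are descriptions of letters and do not mark bound sites. The ETS words CCGGAAGT and CCGGAAGC were near 6 members (0.562%), against 0.377% of all promoters and 0.656% and 0.562% in the windows 500 bp to either side. The DRE (TATCGATA) was near 38 members (3.56%), against 0.843% in both flanking windows and 3.28% of all promoters. It was thus concentrated at the summits relative to their flanks and about as frequent as at promoters in general. In the replicates the DRE share was 2.06%, 3.91% and 6.08%, and at shared promoters it was 9.74%. The M1BP element (GGTCACACT) was near 16 members (all promoters 1.46%). The GAGA word GAGAGAG was near 4.87% of members and 6.29% of all promoters. For the AP-1 element TGANTCA the shares were 4.78% and 4.51%. The E-box CACGTG gave 2.72% and 2.24%. The GATA element AGATAAG was near 2.999% of members and 3.49% of all promoters. These shares were close to those of promoters at large. TATAAA was near 34.4% (31.5%), the initiator words TCAGTT and TCAGTC near 18.6% (17.6%) and 8 consecutive A near 14.4% (12.5%). The larger contrast in the optimal list was in plain AT content. A run of at least 12 bases without G or C was near 54.2% of members, against 46.9% of all promoters. The flanking windows held it in 27.8% and 32.9%. In the replicates the share was 59.4%, 61.0% and 45.1%, so replicate 3 was below all promoters. At shared promoters it was 69.0%, above the members.

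Of all words of 6 letters within 50 bp, those most in excess over all promoters were AT-rich, led by AAATAT at 33.5% against 26.3%. AAATAT was at 38.7%, 36.8% and 24.9% in the replicates, so replicate 3 had no excess of it. Below these AT-rich words came TCTTAA, the complement of TTAAGA, at 13.2% against 8.51%, and ACACTG at 8.72% against 4.28%. The words most depleted were GAGCGA, at 1.87% against 4.96%, and GAGAGC, at 3.00% against 5.96%. In the replicates GAGCGA was at 1.29%, 1.86% and 4.94% and GAGAGC at 2.45%, 1.95% and 5.17%. Replicate 3 was thus close to all promoters for both. TTAAG, chosen after the sequences had been read, was within 50 bp of 30.9% of members, 24.4% of the windows at all coding TSSs, and 16.2% and 16.9% of the flanks. With the members divided by signal into 4 groups of equal size, its share from the highest to the lowest group was 40.4%, 34.8%, 27.7% and 20.7%. Among the 100 highest single-gene peaks of each replicate's own list it was 46.0%, 49.0% and 42.0% (45.7 ± 3.51%, n = 3). ACACTG ran the other way, with 3.00%, 10.9%, 7.87% and 13.2% from the highest to the lowest group. Both words were found by looking at these data, and TTAAG was about as frequent at shared promoters (33.1%) and away from promoters (33.9%) as well. Whether base composition alone gives its share was not tested.

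Genes with several promoters were frequent among the members' genes. A promoter was a group of TSSs of 1 gene linked by gaps of at most 500 bp, and the first is the one farthest upstream. Of the 966 genes 457 (47.3%) had several promoters, against 15.1% of all coding genes and 18.5% of genes at shared-promoter peaks. The replicates gave 45.0%, 42.6% and 42.1%. The share of coding genes with a member was 4.30% for 1 promoter, 16.5% for 2, 27.1% for 3 and 43.4% for 4 or more. A gene with more promoters also has more bases within 500 bp of its TSSs. The share of such bases by promoter number is not given, so these values show no preference for such genes. The members' genes were also long, with a median of 5899 bp against 2166 bp, and only 28.7% were known by a CG number alone, against 43.7% of all coding genes.

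Within genes that have several promoters, the share of members at the first was near its share of promoters and of bases at the window of 500 bp. With TSSs within 250 bp 48.2% were at the first, and no share of bases is given for that window. Of 543 members at such genes, 192 (35.4%) were at the first promoter and 351 at an alternative one, where an equal share for each promoter would give 38.01% and the share of available bases, averaged over the same members, 33.6%. In genes with 2 promoters the members divided evenly, with 132 at each. In genes with 3 the first promoter held 27.5% (equal share 33.3%, bases summed over these genes 29.4%), and in genes with 4 or more 15.6% (equal share 20.1%, bases 16.7%). The replicates gave 35.6%, 34.6% and 36.9% (35.7 ± 1.17%, n = 3). By gene, 152 had members at the first promoter only, 268 at alternative promoters only and 37 at both. Median signals were 185 at first and 206 at alternative promoters, and 82.8% and 83.5% of summits were upstream, so the side did not distinguish them. The median position was −143 bp at first and −217 bp at alternative promoters.

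**Figure D4:**
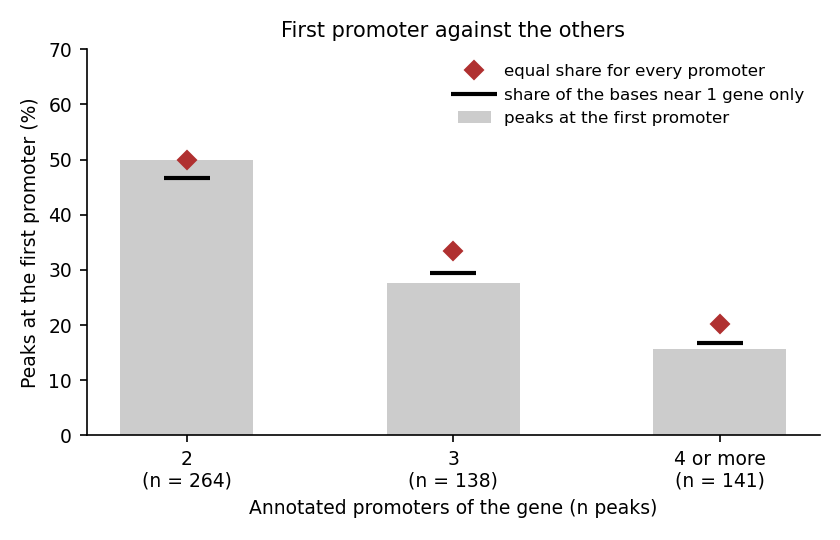
Percentage of peaks at the first promoter (bars, y axis) for genes with 2, 3 and 4 or more annotated promoters (x axis, with the number of peaks). Diamonds give an equal share for every promoter and short lines the share of the bases near 1 gene only. At the window of 500 bp the bars are 50%, 27.5% and 15.6%, and the last 2 lie below both references.

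The highest members at alternative promoters were at CG1888 (signal 2779), PNPase (2608), larp (2298), ph-p (1958) and Trp1, which encodes a translocation protein of the endoplasmic reticulum (1739). They were followed by gish, for a casein kinase (1445), Msp300, for a giant protein that links nuclei to the cytoskeleton (1365), and CG1607 (1362). The peak at gish lay before the third of 4 promoters and was listed in replicates 2 and 3 only, with heights of 6.22 and 8.57. All of the others were in every replicate. At larp the highest peak was before the last of 5 promoters (−333 bp, heights 15.3, 10.6 and 11.1), a lower one before the second (−205 bp, 2.08, 1.44 and 1.79) and the lowest before the first (−120 bp, 1.66, 1.37 and 0.976). The same order held in every replicate.

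Most member genes had a single peak (881), 73 had 2, 9 had 3, 2 had 4 and Rtnl1 had 5. Rtnl1 encodes a reticulon that shapes the endoplasmic reticulum and has 7 annotated promoters. Its highest peak, before promoter 6, had heights of 8.19, 5.38 and 7.29, and the other 4, before promoters 3, 4 and 5, had signals from 180 to 386 against its 1343. None of the 5 was at the first promoter. Ptpmeg2, for a tyrosine phosphatase, had members at promoters 1, 2, 4 and 5 of its 6, the highest before promoter 4 (heights 6.02, 3.73 and 6.02). The cAMP phosphodiesterase gene dnc had 4 members among 8 promoters, of which those before promoter 2 (3.78, 2.33 and 2.46) and promoter 5 (3.44, 2.12 and 3.02) were the high ones. At brwl, with 2 promoters, the first had the highest peak (5.83, 4.56 and 4.42). No peak of the lists used had its summit within 2000 bp of Ets21C itself.

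Functions were described by 40 gene lists, beside the share of all coding genes with a member (6.93%) and beside the count that the list would have if each gene had the rate of coding genes with as many promoters. The lists were drawn up with results of these data known, so their counts are no independent evidence. Some genes were in several lists, such as hid (ecdysone and JNK), Atf3 (bZIP and JNK) and REPTOR (bZIP and TOR). Eip75B, EcR and Hr78 counted for both the ecdysone response and the nuclear receptors. Counts of such lists are therefore not separate from each other. The share was above that of all coding genes for 24 lists, below it for 8, and 8 had no gene with a member.

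Of genes for bZIP factors, dimeric transcription factors of stress and metabolic responses, 9 of 20 (45.0%) had a member, against a count of 3.02 from their promoter numbers. The replicate top lists gave 6, 10 and 6 genes. REPTOR, for a factor active when the kinase TORC1 is inhibited, had heights of 3.66, 3.41 and 4.66. Atf3, for a stress-induced factor, had 3.37, 1.98 and 2.06. cnc, the fly counterpart of the oxidative stress regulator Nrf2, was listed in replicates 2 and 3 only (1.30 and 2.19), with its summit at +311 bp. REPTOR was above Atf3 in every replicate, by least in replicate 1. Where a peak had to be found in both of the other replicates, leaving out 1 at a time, the bZIP count was 3 to 5 genes and the share of all coding genes 3.13% to 4.70%, and with TSSs within 250 bp the count was 4. Counts given below without a replicate use the same setting. They keep peaks of the optimal list, itself made from all replicates, that were found in both of the others.

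The Notch pathway, in which cell contact releases a receptor fragment that activates transcription, had 9 of 24 genes with a member (37.5%), against 1.87 from promoter numbers, and 5, 8 and 10 in the replicates. Leaving out 1 replicate at a time gave 5 to 7 genes. The gene gro, for a co-repressor, had heights of 5.15, 3.93 and 4.13. E(spl)m3-HLH, a repressor gene activated by Notch, had 4.34, 3.20 and 2.07 at its peak at −484 bp, and numb, for an inhibitor of the receptor, 3.41, 2.01 and 1.52. All 3 were in every replicate, and 5 of the 9 genes had a peak in all top lists. The Hippo pathway, which limits tissue growth, had 8 of 27 (3.42 from promoter numbers), with 3, 5 and 8 in the replicates. Its highest peak was at app, for a palmitoyltransferase, with heights of 2.21, 2.04 and 2.12. Mer, for an upstream activator (1.43 and 2.02), and mats, for a co-activator of the kinase Warts (1.61 and 1.48), were listed in replicates 2 and 3 only. Without replicate 2 the count was 2 and the ratio to the share of all coding genes went from 4.28 to 2.36.

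Lists of signalling that acts at metamorphosis were also above the share of all genes. The ecdysone response had 10 of 36 genes (5.06 from promoter numbers; replicates 6, 10 and 12), led by Sox14, by hid, for an activator of cell death (4.88, 2.94 and 3.69), and by E23, for a transporter of the ABC family (3.35, 3.25 and 2.66). JNK and stress kinases had 9 of 34 (3.45; replicates 5, 10 and 8), among them puc, for the phosphatase that shuts JNK off, listed in replicates 2 and 3 only at 0.715 and 2.17. Without replicate 2 the JNK count was 2, and its ratio to the share of all coding genes went from 3.82 to 1.88. EGFR, Ras and MAPK had 8 of 37 (4.34; replicates 4, 7 and 6), led by the ligand gene spi (4.83, 4.77 and 2.83). The repressor gene cic (2.81, 1.92 and 1.41) and aos, for a secreted inhibitor of the receptor (1.14, 1.54 and 0.870), came next. Nuclear receptors had 5 of 21 (3.22 from promoter numbers), and 1 without replicate 2 (from 3.44 to 1.52 times the share of all coding genes). TOR and insulin signalling had 6 of 30 (3.37), and the polycomb and trithorax groups 7 of 43 (4.43). The counts of these 3 lists were nearer to those from promoter numbers than the counts of bZIP and Notch genes were. The list of insulator and interband proteins, which also held wdb and lola, had 8 of 30 genes (2.54 from promoter numbers, with 4, 7 and 8 in the replicates). Among them row had heights of 3.75, 2.82 and 1.73 and Trl 2.25, 2.003 and 2.11, whereas lola was listed in replicates 2 and 3 only (3.30 and 2.91).

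Genes of cytosolic ribosomal proteins behaved differently between replicates. Of 93, 20 had a member (21.5%, 4.49 from promoter numbers), but the replicate top lists gave 3, 16 and 33. With replicate 2 left out and a peak required in both others, 1 gene was counted (1.08%, against 3.13% of all coding genes), and with replicate 3 left out 2 (2.15% against 3.37%). The list was thus 3.10 times the share of all coding genes as reported and 0.343 and 0.638 times in those settings. Both settings require a peak in replicate 1, whose own top list gave 3 genes. RpL26 was listed in replicates 2 and 3 at 1.51 and 1.93, RpL23A at 1.35 and 1.78 and RpS5a at 1.14 and 1.65, and none of the 3 was in the list of replicate 1. Their summits, at +42, −92 and −85 bp, were closer to the TSS than the median member. A further 24 ribosomal protein genes had a peak at a shared promoter only. Heat shock proteins and cochaperones had 6 of 38 (2.60 from promoter numbers). Beside Hsp27, Hsp26 (1.56 and 3.10) and Hsp83 (1.00 and 2.62) were listed in replicates 2 and 3 only.

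Several housekeeping lists had more genes at shared promoters alone than at promoters of their own, where 8.26% of all coding genes had a peak at a shared promoter only. Mitochondrial ribosomal proteins had 2 of 73 genes with a member, mRpL41 and mRpL4, and 22 more at shared promoters only (30.1%). The respiratory chain had 2 of 89 and 14 more (15.7%), and the spliceosome 1 of 37 and 8 more (21.6%). Rab GTPases, coats and secretion had 6 of 95 (6.32%, near the share of all genes) and 20 more (21.1%). With TSSs within 250 bp, mitochondrial ribosomal proteins had 6 genes, the spliceosome 3 and the Rab list 8, which are 1.33, 1.31 and 1.37 times the share of all coding genes at that window. Aminoacyl-tRNA synthetases had 0 of 35, which allows a share of up to 8.57% by counting error alone, and 6 at shared promoters (17.1%). Peroxins had 0 of 15 (up to 20%) and 6 (40%), autophagy 0 of 20 (up to 15%) and 5 (25%), and mitochondrial import 0 of 18 (up to 16.7%) and 4 (22.2%).

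Lists named after tissues or their products ranged from no member to shares above that of all genes. Whether the genes in them are restricted to those tissues was not examined. Chemosensory receptors and binding proteins had 1 of 230 (Obp83g), cuticle proteins 0 of 123 (up to 2.44%) and salivary glue and Eig71E genes 0 of 22 (up to 13.6%), and none of these lists had further genes at shared promoters. Haemocyte genes had 0 of 15 (up to 20%) and germline genes 0 of 12 (up to 25%). Fat body genes had 3 of 13 (23.1%, or 1 to 2 genes with a replicate left out), led by FASN1, for fatty acid synthase (1.17, 1.27 and 0.913). Muscle genes had 3 of 20 (15%), led by Msp300, and neuronal genes 2 of 20 (10%), led by elav, for a neuronal RNA-binding protein (4.21, 3.32 and 4.005). From their promoter numbers these 3 lists would have 1.30, 3.27 and 3.74. With TSSs within 250 bp, muscle and neuronal genes had 1 each (0.811 times the share of all coding genes). Midgut genes had 1 of 12.

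The lists not described above were small in count. Wnt and Hedgehog signalling had 5 of 33 genes with a member (2.88 from promoter numbers), led by sgg, for the kinase GSK3 (4.95, 3.08 and 5.53). Translation factors had 7 of 57 (3.41), of which eIF6 alone was in all top lists. Without replicate 2 or replicate 3, 1 gene was counted (0.560 and 0.521 times the share of all coding genes), and with TSSs within 1000 bp 3 (0.683 times), against 1.77 times as reported. Toll and Imd signalling had 3 of 36 (2.96), led by cact, for the inhibitor of Dorsal-type factors (3.13, 3.33 and 2.90). The cell cycle had 4 of 50 (3.78), led by Dp, for a partner of E2F (3.63, 2.63 and 2.92). Cytochrome P450 genes had 5 of 80, led by Cyp310a1 (3.10, 2.60 and 2.73), and glutathione S-transferases 3 of 35, led by GstE13. Mediator had 3 of 29, the vacuolar ATPase 3 of 33, general transcription factors and RNA polymerases 4 of 62, Dpp and activin 2 of 26, and the proteasome 1 of 48.

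**Figure D5:**
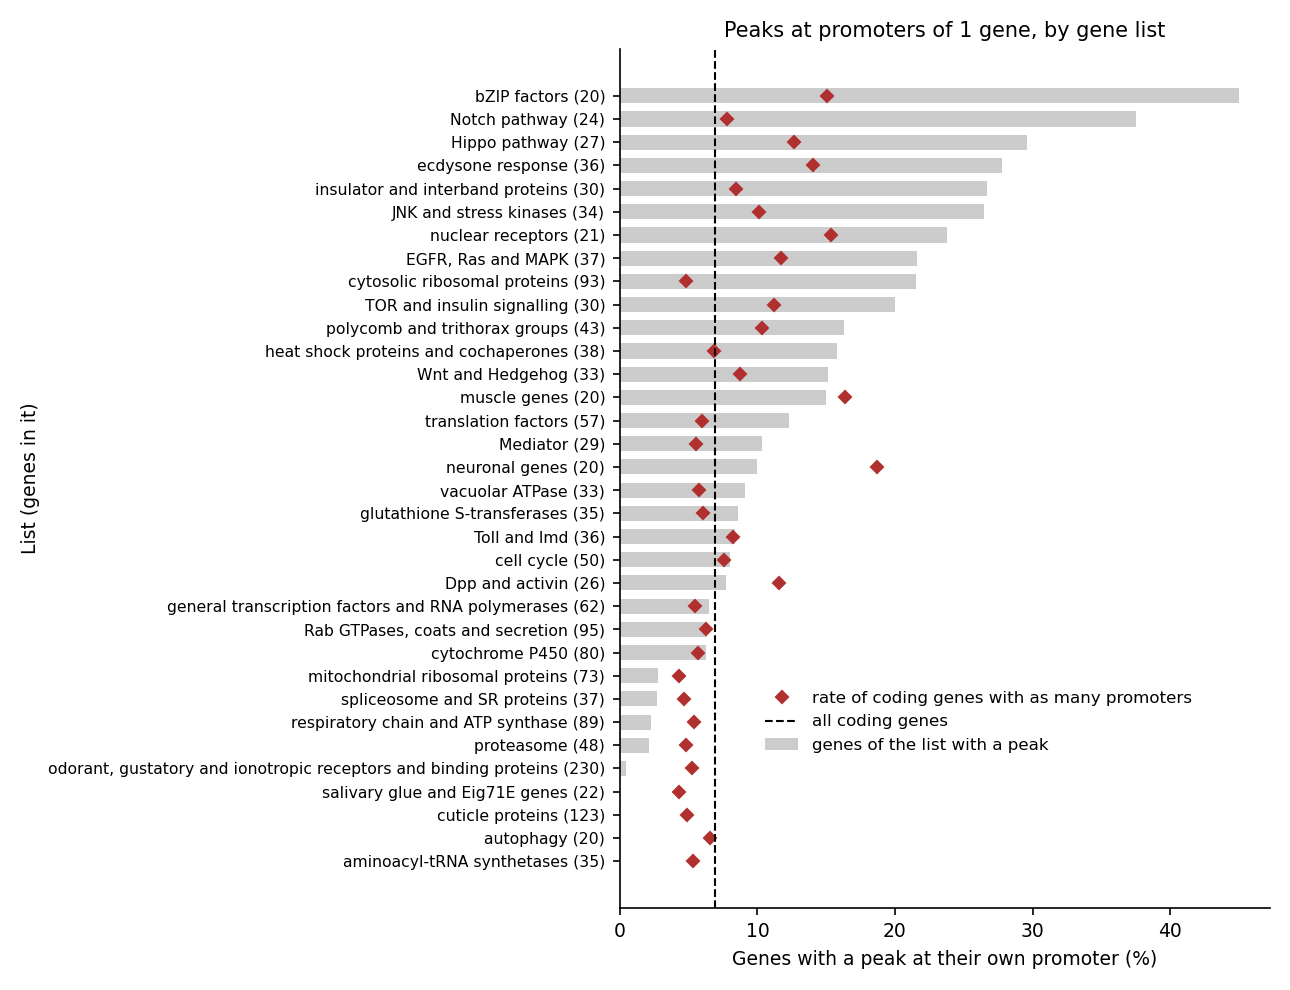
Percentage of genes with a peak at a promoter of that gene alone (bars, x axis) for the 34 lists of at least 20 genes (y axis, number of genes in brackets). The dashed line is the share of all coding genes (6.93%), and diamonds are the rate of coding genes with as many promoters. bZIP factors (45.0%) and the Notch pathway (37.5%) have the longest bars, and neuronal genes lie below their diamond.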

How the data were processed

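The deposited peak lists of an Ets21C-eGFP ChIP-seq experiment on whole white prepupae (3 biological replicates, 1 group) were used on dm6. Per the sample notes, the authors made every replicate list with a control alignment, the pooled list from all replicates together, and the optimal list from both kinds by the irreproducible discovery rate. Which aligner and peak caller they used is not given in the sources used here, nor is any setting. The authors' signal value per peak is on its own scale in each list, so it was ranked within a list and divided by the median of that replicate's 4505 highest peaks (its top list) to give heights. The lists hold no counts, so depth is unknown. The replicate lists held 30000, 28006 and 30000 peaks, the pooled list 27085 and the optimal list 4505, of which 23 were mitochondrial and left out.

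Coordinates are 1-based. TSSs came from Ensembl release 115 (13945 coding genes, 19607 TSS positions on the arms), and bases from the RefSeq Release 6 genome. Weaker peaks were pooled peaks over 500 bp from any optimal summit. Upper limits of a count of 0 use 3 counts and cover counting error only. Single-gene and shared promoters were compared over replicates by an exact two-sided sign-flip permutation test in Python 3.11.15 with scipy 1.17.1, numpy 2.4.6 and pandas 2.3.3. The p-values measure only the spread between these 3 replicates. Peaks and genes are not replicates and were described by counts. The annotation step was tested on simulated data. The members, gene lists and words were chosen with earlier results of these data known, and 5 words, among them TTAAG and its longer form, the runs without G or C, the rates by promoter number, the base shares of shared promoters and of members, and the share of genes at shared promoters only were added after seeing the data. Genes named were the 20 highest members found in all top lists, up to 3 per gene list, the 8 highest at alternative promoters, up to 6 with the most members, the 5 highest over 100 bp downstream, Ets21C, and the 3 on either side of the 500 bp limit. The genes whose element-bearing sequences are shown were chosen by signal among members with that element. Alternatives covered the TSS window, the upper part of the list, noncoding TSSs, longest transcripts, promoter gaps, summit distance, whole lists and each replicate left out.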

Additional observations from a re-analysis of the deposited data

How the results depend on the processing

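The 1067 members became 564 at 531 genes in the upper part of the optimal list by signal, where their median signal was 333, 65.6% were in all top lists and 32.3% of those at genes with several promoters were at the first. With TSSs within 250 bp, 36.6% of summits lay within 100 bp and 48.2% were at the first promoter. With 1000 bp, 74.5% were upstream and 33.8% at the first promoter. With promoters joined by gaps of at most 100 or 1000 bp, 39.0% and 37.3% were at the first. Leaving out each replicate in turn, with peaks required in both others, gave 480 to 705 members at 437 to 655 genes. These were 45.0% to 66.1% of the 1067. Their median signals were 272 to 310, and 34.1% to 34.8% of those at genes with several promoters were at the first. Of the other values recomputed, most of them counts of genes in lists, 134 moved, while 116 stayed within 1.5 times the reported count or, for words, within the spread of the replicates. Of the 32 lists with a member gene, 16 changed side of the share of all coding genes under at least 1 of 6 settings, 11 from above to below and 5 from below to above, and 13 were above it under all 6. No paired analysis was possible because there is only 1 group of samples, and the promoter classes were compared within each replicate. Signal values without read counts limit what can be said of weak peaks.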
